A study of Arabidopsis thaliana with 11 samples.

Results

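Binding of tagged HY5 was examined at 6 copper homeostasis genes of Arabidopsis thaliana, chosen by name and locus among 37899 annotated nuclear genes. They are SPL7 (AT5G18830), MIR408 (AT2G47015), CSD1 (AT1G08830), CSD2 (AT2G28190), CCS (AT1G12520) and COPT2 (AT3G46900). Chromatin of whole seedlings, ecotype Columbia, was immunoprecipitated with a Flag antibody and sequenced in 8 libraries and 3 controls. The tagged protein, made from the 35S promoter with a FLASH tag, was unmodified HY5 (HY5ox, 3 libraries), HY5 with the VP16 activation domain (HY5-VP16, 3 libraries) or HY5 with the SRDX repression domain (HY5-SRDX, 2 libraries). All seedlings, controls included, were grown in the dark for 3 days at 21 °C. They were then exposed for 2.5 h to simulated white light at 100 µmol per square metre and second.

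The libraries fall into 3 sets, each with 1 control. Set 1 holds a Col-0 control, both HY5-SRDX libraries, replicates 1 and 2 of HY5-VP16, and replicate 1 of HY5ox. Set 2 holds a control named for the hy5 mutant and HY5ox replicate 2, which the labels describe as collected and processed apart from the rest. Set 3 holds a Col-0 control, HY5ox replicate 3 and HY5-VP16 replicate 3. The 35S promoter is viral and active in most cell types, so the profiles are of HY5 made outside its own expression pattern, and no cell types were resolved. Whether the libraries of each construct are of different lines or cultures is not in the labels, and p-values therefore measure only how these libraries vary, part of which may be technical.

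Copper is a cofactor of photosynthetic and respiratory electron carriers and of superoxide dismutases. When it is scarce, the SPL transcription factor SPL7 activates copper uptake genes and microRNAs, among them miR398 and miR408. These microRNAs lower the transcripts of dispensable copper proteins, including CSD1, CSD2 and their chaperone CCS for miR398 and plantacyanin and several laccases for miR408. HY5 is a basic leucine zipper protein that promotes seedling greening in light, and HY5 and SPL7 are known to act together at the MIR408 promoter.

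The authors called peaks in each library against the control of its set and assigned them to genes through a promoter window of 2000 bp or through the gene body. Depth ranged from 11.5 to 56.0 M tags, and the lists held 2958 to 20509 peaks. A gene is called listed where a library's deposited gene list holds it. Lists of different lengths were put on 1 scale by the percentile rank of a gene's strongest peak by the caller's score, where values near 0 are the strongest peaks of that library and 100 the weakest. Scores, tag counts and folds of peaks are the authors' values. The deepest library, HY5-VP16 replicate 3, had the shortest list.

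SPL7 was the 1 member listed in all 8 libraries, where 4.94% of annotated genes were. MIR408 followed with 5 libraries and CSD1 with 4, CCS with 3, and CSD2 and COPT2 with 1 each. None of the 6 was missing from every library, against 34.3% of annotated genes. The 2 members in 5 or more libraries, SPL7 and MIR408, compare with a background of 22.8%. All members but MIR408 are protein-coding. Of protein-coding genes, 30% were in 5 or more libraries, 6.58% in all 8 and 19% in none.

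**Figure D1:**
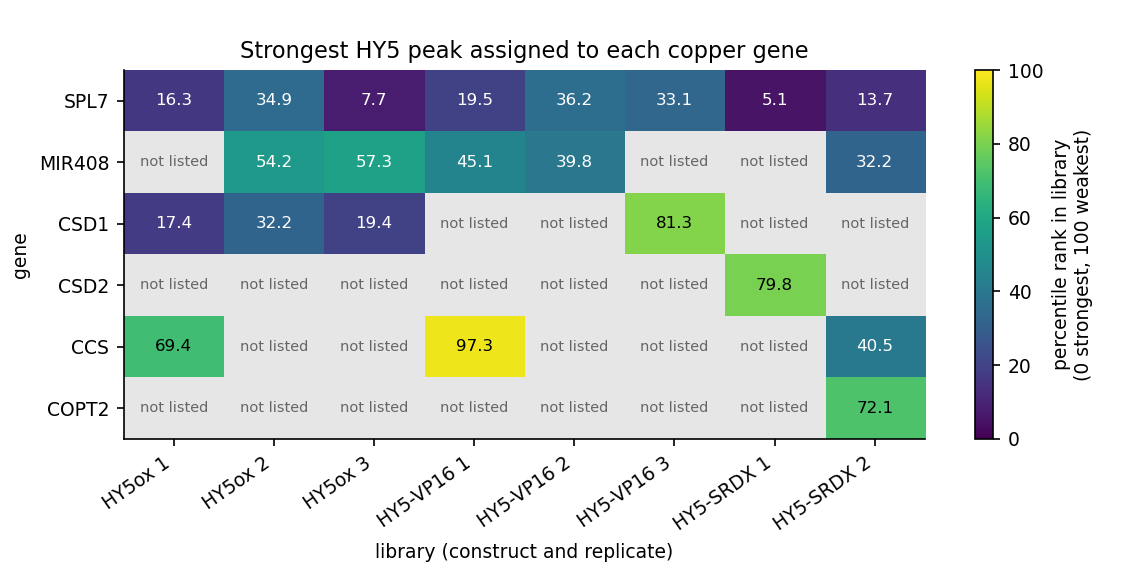
Percentile rank of the strongest peak assigned to each of the 6 genes (rows) in each library (columns), from 0 for the strongest to 100 for the weakest peak, with grey cells where the gene was not listed. SPL7 fills its whole row with ranks of 5.10 to 36.2, and CSD1 fills the HY5ox columns and 1 other.

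Within libraries, 3 of 6 members were listed in HY5ox replicate 1 (background 35.8%), 3 in replicate 2 (22.2%) and 3 in replicate 3 (31.6%). In HY5-VP16, 3 were listed in replicate 1 (26.8%), 2 in replicate 2 (34.2%) and 2 in replicate 3 (9.43%). In HY5-SRDX, 2 were listed in replicate 1 (42.7%) and 4 in replicate 2 (31.1%). SPL7 and CSD1 were in every HY5ox library (background 17.9%), and SPL7 alone was in every HY5-VP16 library (8.14%) and in every HY5-SRDX library (19.9%). With 6 genes these counts are a description and carry no test.

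SPL7, the regulator, lies on the plus strand of chromosome 5 with its start site at 6275991 (TAIR10, coordinates of the authors' files), and its gene spans 6275991 to 6280681. In 7 of the 8 libraries the peaks overlapped 1 another, with centres 887 to 943 bp upstream of the start site. Those 7 peaks shared the 158 bp from 6275021 to 6275178, and their centres spread over 56 bp, less than the width of any 1 peak. HY5-VP16 replicate 2 was the exception, with its peak at 6274670 to 6274860, centred 1226 bp upstream. No other gene was assigned to the promoter peak in any library, so SPL7 was the only annotated gene it was attributed to.

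The SPL7 peak held 102.1, 87.8 and 173.2 tags per 10 M tags in HY5ox replicates 1 to 3. It held 78.4, 44.1 and 63.0 in HY5-VP16 replicates 1 to 3, and 39.1 and 77.1 in HY5-SRDX replicates 1 and 2. Every HY5ox value lay above every value of the other constructs. The same held for the median peak of each library, at 66.7, 77.3 and 78.5 tags in HY5ox and 30.4 to 57.3 in the others. The share of genes separated in this way was not counted. Peak widths differed, from 167 to 301 bp, and a narrower peak collects fewer tags, so these counts are not on 1 scale across libraries.

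Relative to the control, the SPL7 peak was enriched 5.76-, 5.72- and 10.13-fold in the HY5ox libraries. The HY5-VP16 values were 4.42-, 4.41- and 4.11-fold, and those of HY5-SRDX were 3.73- and 7.37-fold. The means were 7.20 ± 2.54 (SD, n = 3), 4.31 ± 0.176 (n = 3) and 5.55 ± 2.57 (n = 2). The 3 HY5-VP16 values stood close together and below all 3 HY5ox values, while the HY5-SRDX values lay on both sides of them. Folds were not on 1 scale, as the median peak had 6.34-fold in HY5ox replicate 1 and 3.91-fold in HY5-VP16 replicate 3. By percentile rank of fold, HY5ox at 56.1, 25.2 and 9.09 overlapped HY5-VP16 at 73.2, 66.5 and 43.4. The share of genes separated by fold was not counted.

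By percentile rank, the SPL7 peak stood at 16.3, 34.9 and 7.65 in HY5ox, 19.5, 36.2 and 33.1 in HY5-VP16, and at 5.10 and 13.7 in HY5-SRDX. By this score percentile it was in the upper part of every list, and highest in HY5-SRDX replicate 1, the longest list. Ranked by tag count, it was highest in HY5ox replicate 3, at 7.61 against 13.6 in HY5-SRDX replicate 1. Ranked by fold over control, the same SPL7 peak stood at 9.09 and 72.4 in these libraries. Its tag count exceeded the library's median peak in 8 of 8 libraries and its enrichment over the surrounding 10 kb did so in 8 of 8. Its enrichment over the control exceeded the median in only 4 of 8, and the control tags under it exceeded the median in 7 of 8. In HY5ox replicate 1, for example, the control gave 25.5 scaled tags under the SPL7 peak against a median of 15.7 for all peaks. The rank by fold was 56.1 there, against 16.3 by score.

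Among the 1871 genes listed in all 8 libraries, SPL7 was ordinary in strength. Its mean rank was 20.8 against a median of 20.1, and 52.1% of them ranked better. HY5-SRDX replicate 1 had a second SPL7 peak inside the gene, centred 3537 bp downstream of the start site, with 5.91-fold enrichment and a percentile rank of 34.5. That internal peak had no counterpart assigned to SPL7 in the other 7 libraries.

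**Figure D2:**
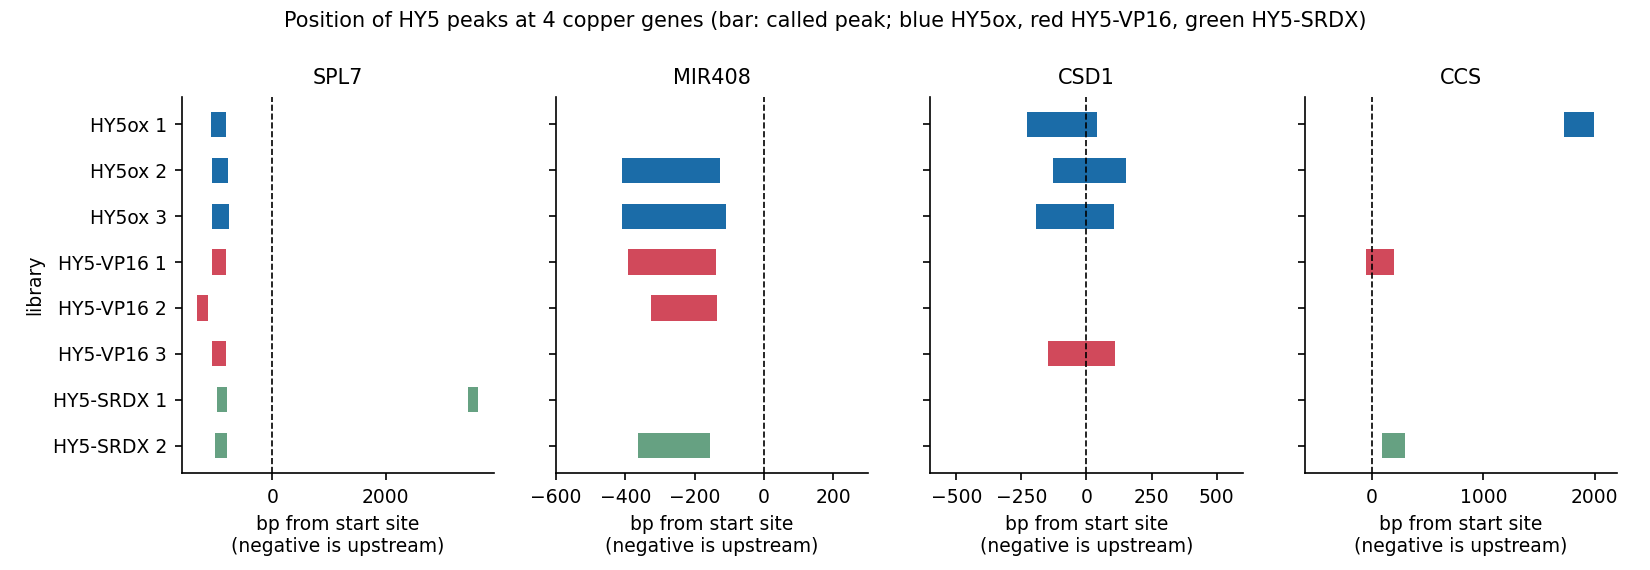
Extent of every called peak assigned to SPL7, MIR408, CSD1 and CCS (horizontal axes, bp from the start site, different scale in each panel) in each library (vertical axis), coloured by construct. Peaks stack at 1 place for MIR408 and CSD1 and in 7 of 8 libraries for SPL7, while the CCS peaks lie at both ends of that gene.

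MIR408, the locus of the copper microRNA that targets plantacyanin and laccases, starts at 19319781 on the plus strand of chromosome 2. It was listed in HY5ox replicates 2 and 3, HY5-VP16 replicates 1 and 2 and HY5-SRDX replicate 2. All 5 peaks overlapped in the promoter, with centres 232 to 269 bp upstream of the start site, a spread of 37 bp. The 173 bp from 19319454 to 19319626 were common to all of them.

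The MIR408 peak held 73.9 and 73.4 tags per 10 M tags in the HY5ox libraries that listed it, 61.8 and 41.1 in the HY5-VP16 libraries and 55.5 in HY5-SRDX replicate 2. Enrichment over the control was 3.21- and 4.10-fold, 4.53- and 3.01-fold, and 6.42-fold in the same order. Percentile ranks were 54.2 and 57.3 in HY5ox. They were 45.1 and 39.8 in HY5-VP16 and 32.2 in HY5-SRDX replicate 2. The peak was of middling strength in each list, and its fold in HY5ox replicate 2 and HY5-VP16 replicate 2 was just past the 3-fold that the authors required. Control tags under it were above the library's median in 5 of 5 libraries, and its fold over the control was above the median in 1 of 5. Its enrichment over the surrounding 10 kb was above the median in 0 of 5.

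In the remaining 3 libraries the nearest peak to the MIR408 start site was 3.27 kb upstream in HY5ox replicate 1, 9.62 kb upstream in HY5-VP16 replicate 3 and 2.13 kb upstream in HY5-SRDX replicate 1. None of those peaks was assigned to MIR408. A library that does not list MIR408 had no peak there that passed the authors' thresholds. Tag counts under the promoter in those libraries were not analysed here, so a weaker signal there cannot be told from none. In 3 libraries the MIR408 peak was also assigned to the body of the neighbouring gene AT2G47010.

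Among the 2175 genes listed in exactly 5 libraries, 30.2% ranked better than MIR408, whose mean rank was 45.7 against a median of 56.1. Of 326 microRNA loci in the annotation, 215 were in no library, 25 (7.7%) were in 5 or more and 5 were in all 8 (MIR156d, MIR158a, MIR163, MIR168a and MIR866). The median locus was in 0 libraries. These loci were chosen for comparison after their values had been seen.

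CSD1, a cytosolic copper/zinc superoxide dismutase and a miR398 target, is on the plus strand of chromosome 1 from 2827062 to 2829315. It was listed in the 3 HY5ox libraries and in HY5-VP16 replicate 3. The 4 peaks overlapped across the start site, with centres from 94 bp upstream to 12 bp downstream, and shared the 172 bp from 2826933 to 2827104. Each peak was also assigned to the promoter of VAP27-2 (AT1G08820), a membrane contact site protein, so the peak cannot be attributed to CSD1 alone.

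At CSD1 the peak held 102.8, 90.4 and 122.6 tags per 10 M tags in HY5ox replicates 1 to 3 and 43.2 in HY5-VP16 replicate 3. Enrichment over the control was 4.04-, 3.79- and 9.17-fold in HY5ox, a mean of 5.67 ± 3.04 (SD, n = 3), and 3.54-fold in HY5-VP16 replicate 3. Percentile ranks were 17.4, 32.2 and 19.4 in HY5ox and 81.3 in HY5-VP16 replicate 3. By score the peak was in the upper part of the 3 HY5ox lists and near the bottom of the 1 HY5-VP16 list that held it. Those lists differ in length. Counted from the top of the list, its place was 2167 of 12447, 2271 of 7043 and 2068 of 10675 in HY5ox. In HY5-VP16 replicate 3 the CSD1 peak was at place 2404 of 2958, so the places lay much closer together than the percentile ranks. By fold over control it ranked at 80.5, 66.5 and 12.3 in HY5ox and at 65.4 in HY5-VP16 replicate 3, so HY5ox was not uniformly stronger. Its tag count and its enrichment over the surrounding 10 kb were each above the library's median in 3 of 4 libraries, its control tags in 2 of 4 and its fold over the control in 1 of 4.

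In the 4 libraries that did not list CSD1, the nearest peak was 9.0 and 9.22 kb upstream in HY5-VP16 replicates 1 and 2. It was 4.11 kb downstream in HY5-SRDX replicate 1 and 8.59 kb upstream in HY5-SRDX replicate 2. Among the 2368 genes listed in exactly 4 libraries, 11.1% ranked better, with a mean rank of 37.6 for CSD1 against a median of 62.1.

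**Figure D3:**
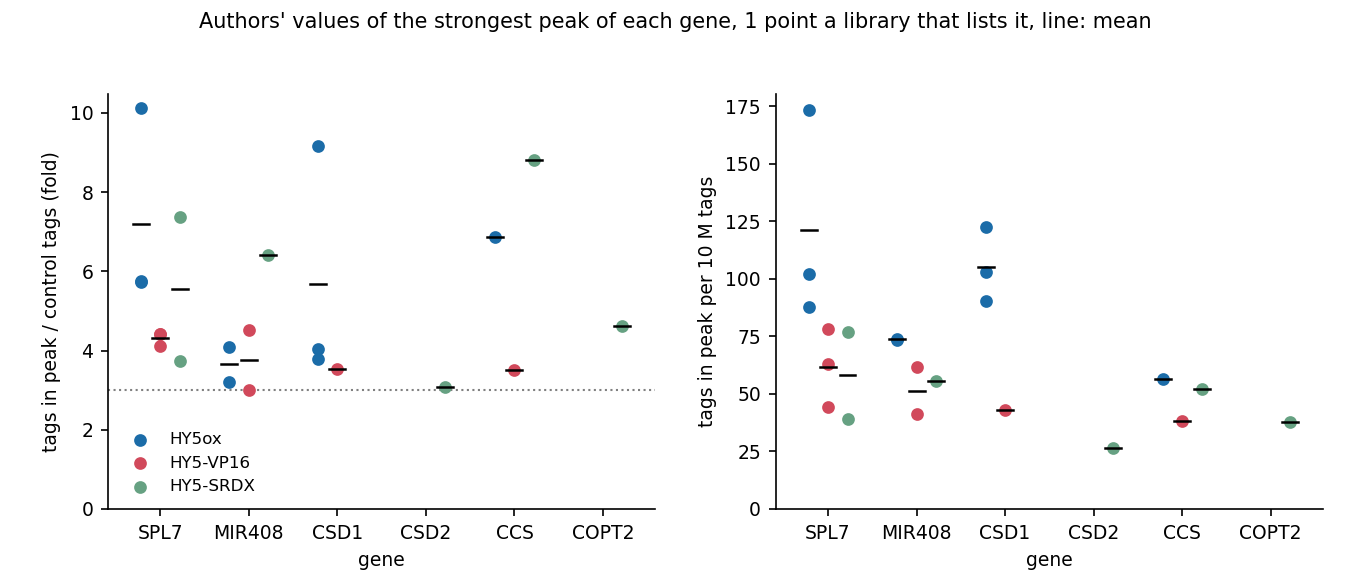
Enrichment over the control (left, fold, dotted line at the 3-fold required by the authors) and tags in the peak per 10 M tags (right) for the strongest peak of each gene, with 1 point for each library that lists the gene and a bar at the mean of each construct. SPL7 and CSD1 in HY5ox hold the highest tag counts, up to 173.2, and the single CSD2 peak sits at 3.09-fold.

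The other 3 members had peaks in few libraries. CSD2, the plastid copper/zinc superoxide dismutase, was listed in HY5-SRDX replicate 1 with a peak 631 bp upstream of the start site at 12014499 on chromosome 2. That peak had 26.7 tags per 10 M tags, 3.09-fold enrichment and a percentile rank of 79.8, and it was shared with ATCHX8 (AT2G28180), a predicted cation exchanger. It was a weak peak in the longest list. In HY5ox replicates 1 and 3, HY5-VP16 replicate 1 and HY5-SRDX replicate 2 the nearest peak was 4.16 to 4.20 kb downstream of the CSD2 start site and was assigned to no gene, with 8.94- to 11.54-fold enrichment.

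CCS, the chaperone that loads copper into both dismutases, lies on the minus strand of chromosome 1 from 4267107 to 4268926. HY5ox replicate 1 had a peak around the 3′ end, centred 1856 bp downstream of the start site, with 6.87-fold enrichment and a percentile rank of 69.4. HY5-VP16 replicate 1 had a peak over the start site, centred 73 bp downstream, with 3.50-fold enrichment and a rank of 97.3. HY5-SRDX replicate 2 had a peak centred 193 bp downstream, with 8.80-fold enrichment and a rank of 40.5. The last 2 overlapped by 111 bp and the first was at the other end of the gene, so the 3 listings do not stand for 1 site. The tRNA gene AT1G12510 shared all 3 peaks, and AT1G12500 shared the first.

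COPT2, a plasma membrane copper transporter that SPL7 activates, spans 17268876 to 17269510 on the plus strand of chromosome 3. Its single peak, in HY5-SRDX replicate 2, was in the gene body 123 bp downstream of the start site, with 37.8 tags per 10 M tags, 4.62-fold enrichment and a percentile rank of 72.1. It was shared with AT3G46890. In the other 7 libraries the nearest peak to the COPT2 start site was 4.55 to 22.80 kb away.

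The constructs were compared by percentile rank, with 100 given to a library that did not list the gene, in two-sided exact permutation tests over libraries with Benjamini-Hochberg adjustment over all genes listed in the libraries compared. The smallest p these designs allow is 0.1, so no gene could pass 0.05, and none did at an unadjusted or adjusted p. In all, 16 member comparisons were made. Libraries were taken as they stood, 3 against 3 or 3 against 2.

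For SPL7 the mean rank was 19.6 ± 13.9 (SD, n = 3) for HY5ox. For HY5-VP16 it was 29.6 ± 8.89 (n = 3), and for HY5-SRDX 9.40 ± 6.09 (n = 2). HY5ox and HY5-VP16 overlapped and differed by -10.0 percentile points (exact permutation p = 0.3, adjusted p = 1). HY5ox and HY5-SRDX overlapped and differed by 10.2 points (exact p = 0.4, adjusted p = 0.588). HY5-VP16 and HY5-SRDX did not overlap and differed by 20.2 points (exact p = 0.2, adjusted p = 0.669). All percentile ranks of SPL7 were stronger in HY5-SRDX than in HY5-VP16, as for 13.9% of the 23832 genes tested. By place in the list, HY5-VP16 replicate 3 at 980 stood ahead of HY5-SRDX replicates 1 and 2 at 1046 and 1737. The constructs then overlapped, with a difference of 1169 places (exact permutation p = 0.7). The rank in HY5-VP16 replicate 2 belongs to its separate peak 1226 bp upstream.

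Within set 1, where libraries share a control, the same 3 differences for SPL7 were -11.6, 6.91 and 18.5 points. When peaks were ranked by fold over control in place of the score, the difference between HY5ox and HY5-SRDX turned to -6.57 points, and the gene-body peak replaced the promoter peak in HY5-SRDX replicate 1. With the promoter peak kept there, an alternative added after the data were seen, it was -25.4 points. HY5-VP16 and HY5-SRDX then overlapped and differed by 5.49 points (exact p = 0.7).

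CSD1 had the widest difference of the 6 genes by score. Its mean rank was 23.01 ± 8.06 in HY5ox (SD, n = 3). It was 93.8 ± 10.8 in HY5-VP16 (n = 3) and 100 in both HY5-SRDX libraries, which did not list it. The difference was -70.8 points for HY5ox less HY5-VP16 (exact permutation p = 0.1, adjusted p = 1) and -77.0 points for HY5ox less HY5-SRDX (exact p = 0.1, adjusted p = 0.490). Neither pair overlapped, which was also true, with HY5ox stronger, of 8.99% of 19117 genes in the first comparison and 11.5% of 24253 in the second. Ranked by fold over control, the differences were -35.4 points (exact p = 0.3) and -46.9 points (exact p = 0.2), and HY5ox and HY5-VP16 overlapped. Within set 1 the difference was -82.6 points from each of the other constructs. It set HY5ox replicate 1 against the assigned 100, as no set 1 library of the other constructs listed CSD1. Within set 3 the ranks were 19.4 in HY5ox and 81.3 in HY5-VP16, at places 2068 and 2404 in lists of 10675 and 2958 peaks. Set 2 holds HY5ox only. HY5-VP16 and HY5-SRDX overlapped at CSD1 and differed by -6.24 points (exact p = 1).

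MIR408 overlapped between all pairs of constructs. The mean ranks were 70.5 ± 25.6 (SD, n = 3) for HY5ox, 61.6 ± 33.3 (n = 3) for HY5-VP16 and 66.1 ± 47.9 (n = 2) for HY5-SRDX, with 1 unlisted library in each. The differences were 8.88, 4.41 and -4.48 points for HY5ox less HY5-VP16, HY5ox less HY5-SRDX and HY5-VP16 less HY5-SRDX (exact p = 0.6, 1 and 1). Each of these turned sign when 1 library or the ranking column was changed, so no order of the constructs can be read for MIR408.

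For CCS the same differences were -9.30, 19.5 and 28.9 points (exact p = 1, 0.7 and 0.4). CSD2 and COPT2, each in 1 HY5-SRDX library, gave 10.1 and 13.9 points against either other construct (exact p = 0.4 in each). Each of these differences rested on libraries that did not list the gene.

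The authors' deposited tables of peaks merged across libraries gave a narrower view, and their gene counts compare with 37899 annotated nuclear genes. With 6 members, the counts of members in them are a description and carry no test. In the authors' deposited table for all 8 libraries, with 1272 genes, none of the 6 members appeared. SPL7 was absent from it and from the authors' deposited table for HY5-VP16 replicates 1 and 2, where its peaks do not overlap. The authors' deposited table for HY5ox replicates 1 and 2, with 7075 genes, held SPL7 and CSD1. That for HY5-SRDX replicates 1 and 2, with 3810 genes, held SPL7, and the authors' deposited table for HY5-VP16 replicates 1 and 2, with 6940 genes, held MIR408.

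A list of 44 copper genes, the 6 members and 38 others sorted into 9 roles from general knowledge, placed the members in their pathway. Of these, 16 (36.4%) were in 5 or more libraries, 3 (6.8%) in all 8 and 5 (11.4%) in none, against 22.8%, 4.94% and 34.3% of annotated genes. The median copper gene was in 4 libraries, also without the members, the median annotated gene in 1 and the median protein-coding gene in 2. Most of the 44 are protein-coding. Of 27444 protein-coding genes, 8226 (30%) were in 5 or more libraries, 1805 (6.58%) in all 8 and 5224 (19%) in none, nearer to the copper list than annotated genes at large.

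**Figure D4:**
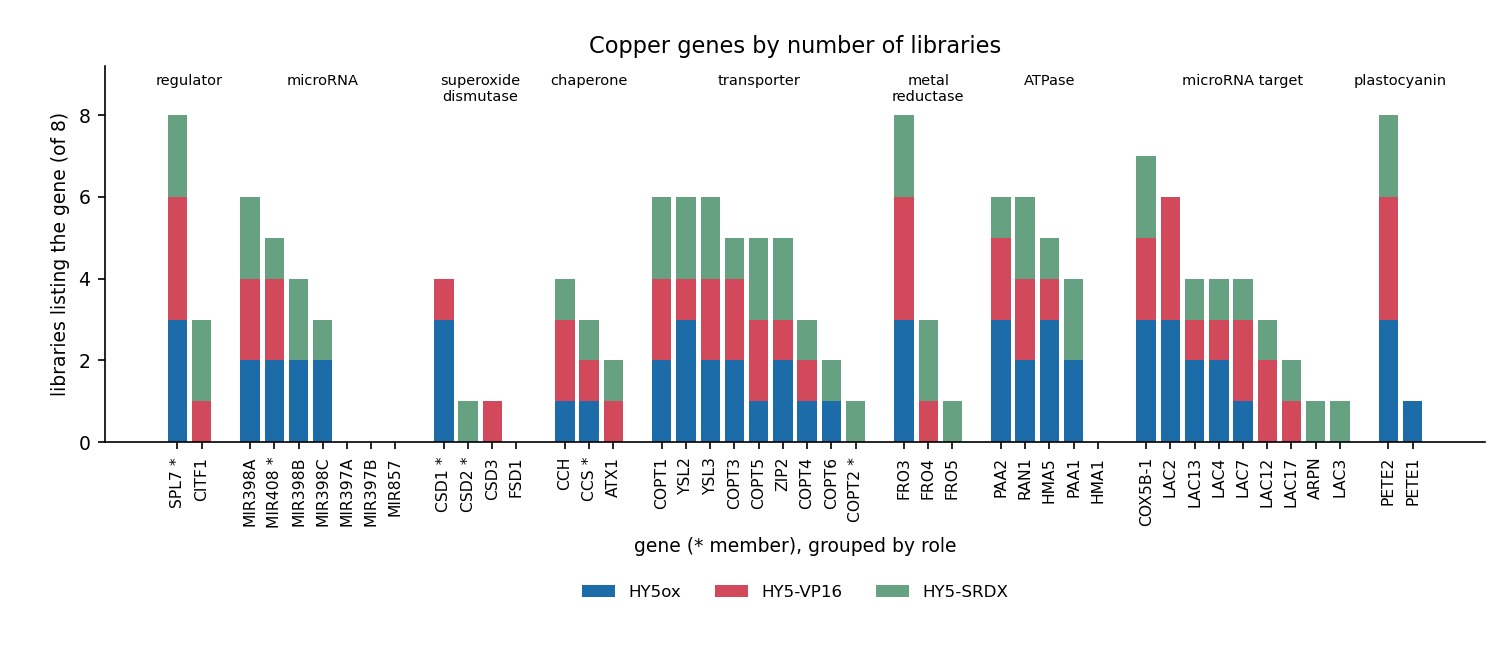
Number of libraries, of 8, that list each of the 44 copper genes (bars stacked by construct, grouped by role, members starred). SPL7, FRO3 and PETE2 reach 8, and HMA1, MIR397A, MIR397B, MIR857 and FSD1 stand at 0.

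Besides SPL7, the genes in all 8 libraries were FRO3, a mitochondrial metal reductase, and PETE2, a plastocyanin that carries electrons in photosynthesis. By score, FRO3 had the strongest peaks of any copper gene in all 3 HY5ox libraries, with percentile ranks of 1.34, 3.49 and 1.61 and 20.22-, 14.67- and 13.87-fold enrichment. By fold, RAN1 at 247.42 and HMA5 at 105.38 were higher in HY5ox replicate 1, over 0.3 and 0.7 scaled control tags. In HY5-VP16 its ranks were 1.81, 0.725 and 10.1, and in HY5-SRDX 48.3 and 10.5. Its 8 promoter peaks were centred 181 to 275 bp upstream of the start site, closer than the SPL7 peak. FRO3 was also the 1 copper gene in the authors' deposited table for all 8 libraries.

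PETE2 ranked at 21.4, 26.2 and 17.6 in HY5ox, at 38.7, 63.6 and 77.5 in the HY5-VP16 libraries and at 60.6 and 36.1 in those of HY5-SRDX. Its percentile ranks were stronger in all 3 HY5ox libraries than in any other, as for 8.99% of genes tested against HY5-VP16 and 11.5% of those tested against HY5-SRDX. By place in the list, PETE2 in HY5-VP16 replicate 3 at 2291 stood ahead of PETE2 in HY5ox replicate 1 at 2661. In HY5ox and HY5-VP16 its strongest peak was centred 94 to 173 bp upstream of the start site. In HY5-SRDX replicate 1 the peak was 1884 bp upstream. In HY5-SRDX replicate 2 the strongest was in the gene body, 422 bp downstream, with another 247 bp upstream at a rank of 41.3. The ranks therefore do not all belong to the same site. Except in HY5-SRDX replicate 1, the PETE2 peaks were shared with TIM17-1, a mitochondrial import protein. PETE1, the other plastocyanin, was listed in HY5ox replicate 3 only, with a rank of 27.4.

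Among regulators, CITF1, a basic helix-loop-helix copper regulator, was in HY5-VP16 replicate 2 and both HY5-SRDX libraries and in no HY5ox library. Its ranks were thus all stronger in HY5-SRDX than in HY5ox, as for 3493 of the 24253 genes tested. The CITF1 peaks did not overlap. In HY5-VP16 replicate 2 the peak was 1824 bp upstream of the start site, with a rank of 71.7. In HY5-SRDX replicates 1 and 2 the peaks were 64 and 587 bp downstream, with ranks of 15.3 and 70.55. MIR398A, a locus of the microRNA that targets CSD1, CSD2 and CCS, was in 6 libraries, 1 more than MIR408 and 2 of each construct, with ranks of 56.7 to 89.8 and every peak shared with NRP1 and PAP9. MIR398B was in 4 libraries with ranks of 62.2 to 87.6. MIR397A, MIR397B and MIR857, whose microRNAs target laccases, were in none.

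Among the enzymes next to CSD1 and CSD2, the peroxisomal dismutase CSD3 was in HY5-VP16 replicate 2 alone, at a rank of 90.2. FSD1, the iron superoxide dismutase that replaces the copper enzymes under deficiency, was in none. Of the 4 dismutase genes in the list, only CSD1 was in more than 1 library. Of the chaperones beside CCS, CCH was in 4 libraries with ranks of 16.4 to 44.6, and ATX1 was in 2, at 67.5 and 79.6.

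For uptake and transport, 6 of 9 transporter genes were in 5 or more libraries, beside 22.8% of annotated and 30% of protein-coding genes. COPT2 was in 1. YSL3, a metal-nicotianamine transporter, was in 6 libraries with ranks of 22.4 to 73.2. COPT1, a copper importer, was also in 6, with ranks of 26.3 to 85.1, and shared a peak with its neighbour COPT3 in 5 of them. COPT3 was listed only through that shared peak and is 1 of the 6 transporter genes counted, so the count is not of separate peaks. The surface reductases FRO4 and FRO5 were in 3 and 1 libraries and in no HY5ox library. FRO4 was 1 of the 3493 genes, of 24253 tested, with all ranks stronger in HY5-SRDX than in HY5ox.

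Of 5 copper ATPase genes, 3 were in 5 or more libraries, beside the same background. PAA2, which moves copper into thylakoids, was in 6, with ranks of 20.9 to 66.7 and every peak shared with YLMG2. RAN1, which supplies ethylene receptors, was in 6, with weaker ranks of 50.5 to 99.5. HMA1, a chloroplast envelope ATPase, was in none.

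Among copper proteins that the microRNAs target, COX5B-1, a cytochrome c oxidase subunit, was in 7 libraries with ranks of 2.89 to 20.6. Its strongest peak, 1186 to 1298 bp upstream, was shared with the photolyase gene UVR3 and with AT3G15630. LAC2, a laccase, was in all HY5ox and HY5-VP16 libraries and in neither HY5-SRDX library. Its ranks were thus all stronger in HY5ox than in HY5-SRDX, as for 11.5% of 24253 genes tested. They were also all stronger in HY5-VP16 than in HY5-SRDX, as for 818 of 23832 genes. Its peak was in the gene body, 2540 to 2586 bp downstream of the start site, with ranks of 8.80 to 28.3. The remaining 7 targets were in 1 to 4 libraries.

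**Figure D5:**
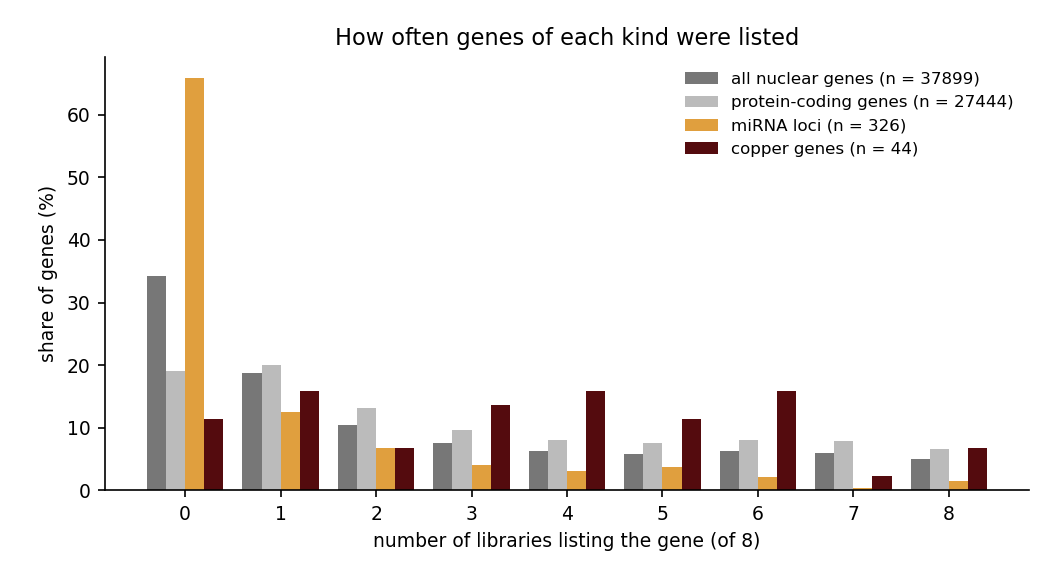
Share of genes (vertical axis, percent) listed in a given number of libraries (horizontal axis, 0 to 8), for all annotated nuclear genes, protein-coding genes, microRNA loci and the 44 copper genes. MicroRNA loci pile up at 0 libraries (215 of 326), and 11.4% of copper genes are there.

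Within its own family, SPL7 was 1 of 3 genes in all 8 libraries, out of 17 SPL genes. The others were SPL8, with a mean rank of 1.70, and SPL6, with 43.1, against 20.8 for SPL7. The median SPL gene was in 5 libraries, 12 (70.6%) were in 5 or more, and SPL4, SPL5 and SPL10 were in none. Of annotated genes 22.8%, and of protein-coding genes 30%, were in 5 or more. For all 8 libraries the shares were 17.65% of SPL, 4.94% of annotated and 6.58% of protein-coding genes. The family was added as a comparison after its values had been seen, and a listing in many libraries was not particular to SPL7 among its members.

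The genes most like each member were taken by the mean absolute difference in percentile rank over the 8 libraries, with 100 for an unlisted library. For SPL7 these were AT1G21680 with a difference of 6.18 points, followed by LIL3:2 and BI1, which had identical ranks to each other and differed from SPL7 by 6.64. For MIR408 they were the tRNA gene AT3G09595 at 4.41, AT1G53380 at 5.34 and AT2G31370 at 6.73. For CSD1 they were AT1G75530 at 2.37, AT1G12810 at 2.57 and SKIP3, an F-box protein, at 3.71. AT1G12810 was also listed in HY5-SRDX replicate 2, which CSD1 was not. No other member appeared among these genes.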

How the data were processed

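HOMER 4.9.1, Bowtie2 2.3.0, CASAVA 1.8.2 and the TAIR10 build are named in the submitters' processing notes. Per the file headers, HOMER findPeaks called peaks per library at a false discovery rate of 0.001, requiring 3-fold over the set's control with a p-value of 0.0001 and 2-fold over the surrounding 10 kb with a p-value of 0.001. As deposited, a peak's signal is its tag count per 10 M tags, its score is the caller's own value, and its fold is the ratio of its tags to scaled control or local tags. In HY5-VP16 replicate 3 the peak's tags were scaled down to the control instead, per the file headers. Depth was 11.5 to 56.0 M tags per library. The files give no counts over a region where no peak was called, so no depth-based limit is given there.

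Peaks were ranked by score within each library. Where the authors gave a peak both types, it was taken as a promoter peak, and peaks overlapping by at least 1 bp were taken as 1 position. Gene names and types came from RefSeq TAIR10.1, and its coordinates stayed unused. Of 25262 identifiers listed in any library, 24902 matched it, as did all 44 copper loci, 4 of them under another symbol. Constructs were compared with exact permutation tests, checked on simulated data. The members, gene lists and tests were chosen with earlier results of these data known. Genes named are the 6 members, copper genes in all libraries or in none, up to 2 others per role (most libraries first, then best mean rank), genes sharing a member's peak, and the 3 most alike genes for members in at least 4 libraries. The alternatives tried were other gene lists, promoter peaks only, a 6-fold threshold, other ranking columns, absolute ranks, pairing by replicate number, set 1 only, another overlap and leaving out each library. The fold rank of the best-scoring peak was added after seeing the data. The control libraries' own tag data and sequences were not used here. Software versions were scipy 1.17.1, pandas 2.3.3 and numpy 2.4.6 under Python 3.11.15, with matplotlib 3.10.9 for figures.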

Additional observations from a re-analysis of the deposited data

How the results depend on the processing

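Requiring 6-fold over the control left SPL7 in 2 libraries, MIR408 in 1, CSD1 in 1, CCS in 2, CSD2 in 0 and COPT2 in 0. Then 0 members and 0 copper genes were in all 8, and SPL7 no longer led the members. The median peak was itself below 6-fold in every library except HY5ox replicate 1 and HY5-VP16 replicate 1. The share of annotated genes left at 6-fold was not counted, so these counts have no background beside them. Counting promoter peaks only left CCS in 1 library and COPT2 in 0. Leaving out each library in turn gave CSD2 and COPT2 counts between 0 and 1.

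Of 180 alternatives to the 16 rank differences, 25 turned the sign, in 11 differences, and the smallest exact p in any alternative was 0.1. The differences are given in the order HY5ox less HY5-VP16, HY5ox less HY5-SRDX, HY5-VP16 less HY5-SRDX. Ranking by fold over control turned MIR408 to -4.37 in the first and 17.6 in the third, and SPL7 to -6.57 in the second. In HY5-SRDX replicate 1 that ranking also moved SPL7 from its promoter peak to its gene-body peak. Keeping the peak with the best score, an alternative chosen after seeing the data, gave SPL7 -25.4 in the second and the same values for MIR408. The cause was not tested. Ranking by fold took SPL7 to -30.9 and CSD1 to -35.4 in the first. With absolute ranks, CCS turned to 255.3 in the first. In the second, MIR408 turned to -4834, CSD2 to -4463, CCS to -4036 and COPT2 to -4768. In the third, CSD2 turned to -5902, CCS to -4291 and COPT2 to -6208. By construction, an unlisted library then takes the length of its list, and HY5-SRDX replicate 1 has the longest. In set 1 alone, CCS turned to -0.851 in the second.

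Leaving out each library gave MIR408 differences between -5.86 and 28.1 in the first, -29.5 and 38.3 in the second and -38.4 and 29.4 in the third. For CCS the ranges were -14.4 to 0.897, -10.2 to 49.3 and -0.897 to 58.6. SPL7 ranged from -17.6 to -4.03, 2.58 to 16.2 and 15.9 to 25.3, and CSD1 from -77.0 to -67.6 in the first and -81.6 to -74.2 in the second. Without HY5-VP16 replicate 3, COX5B-1 joined the copper genes listed in every library, making 4.

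Whether replicate numbers pair the libraries could not be settled. The correlation of deviations over genes between same-numbered libraries was between -0.159 and 0.163. Between libraries of different numbers it was between -0.283 and 0.283. With 2 HY5-SRDX libraries, the deviations of 1 mirror those of the other, so their correlations come in pairs of opposite sign. A replicate block by number changed no sign, with SPL7 at -10.0, 16.2 and 18.5 points.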
